A study of Mus musculus with 12 samples.

Results

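Mmp19, Mmp2, Thbs1, Lgals3, Emilin2, Timp1, Timp2 and Timp3 encode secreted proteases, secreted protease inhibitors and proteins that sit in or bind the extracellular matrix. These 8 genes, of 28999 in the deposited expression table, were chosen by name as genes with large changes over the 4 groups of libraries. Their levels and differences are therefore a description and carry no test. Timp1, with at most 2 reads per library, showed no such change. Of the 8, 7 passed the filter on low counts that 16319 genes passed, and Timp1 did not.

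The libraries were made from mouse bone marrow cells labelled as long-term haematopoietic stem cells, or LT-HSCs, which maintain blood formation over a lifetime. Libraries of wild-type and of Trim47-/- mice, either untreated or given 5-fluorouracil (5-FU), made up the 4 groups, with 3 libraries in each. 5-FU is an antimetabolite that kills cycling cells, and the labels give a time of 10 days for the groups with 5-FU. Trim47 is a gene of the tripartite-motif family, whose proteins attach ubiquitin to their targets. Its deleted part, the sorting gate, the drug dose and the age of the mice were not given in the sources used here, and the labels name no agent or allele that all groups share.

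Matrix metalloproteinases are zinc enzymes, made as inactive precursors, that cut collagens, other matrix proteins and cell-surface proteins. Tissue inhibitors of metalloproteinases (TIMPs) bind the active enzymes, so the level of active protease depends on both. Matricellular proteins such as thrombospondin 1 are secreted into the matrix and signal through cell receptors, and in bone marrow the matrix and its proteases are known for their part in the release and return of blood stem cells.

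The total count per library was 14828152 to 14885673 in untreated wild type, 20661120 to 20703198 in untreated Trim47-/-, 15111811 to 15151589 in wild type after 5-FU, and 13919649 to 13953510 in Trim47-/- after 5-FU. The labels do not say that the libraries of a group came from separate animals, so p-values here measure no more than the spread between libraries, and that spread may be technical. Within groups, 12.6% to 13.9% of genes varied beyond counting noise, where chance gives 1%. In untreated wild type Trim47 stood at 24.3 ± 0.530 CPM (counts scaled to a TMM-adjusted library total; SD, n = 3 here and below), against 19.7 ± 3.62 CPM in untreated Trim47-/-, 35.3 ± 2.50 CPM in wild type after 5-FU and 11.3 ± 1.09 CPM in Trim47-/- after 5-FU. Trim47 RNA was thus present in every library, with the untreated groups close to each other (16.5 to 23.7 CPM in Trim47-/- and 23.7 to 24.7 CPM in wild type). The groups are named as labelled. All 14 genes of the LT-HSC marker list were detected, with summed levels of 1869 to 1986, 2108 to 2209, 1995 to 2135 and 1517 to 1586 CPM in the same order of groups. Of these, Slamf1, a defining surface marker, was low in the untreated groups (1.89 and 2.85 CPM). The list also holds Cd34 and the progenitor marker Cd48, the second of which stood at 52.5 to 105 CPM (group means). Its sums and counts therefore do not stand for LT-HSC markers alone.

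The 2 proteases differed in opposite directions between the genotypes, both without drug and after 5-FU, and with 5-FU in Trim47-/-. With 5-FU in wild type both were lower. Mmp19 encodes a widely made metalloproteinase that cuts basement membrane proteins (ENSMUSG00000025355, chr10:128790910-128800824 of GRCm38, plus strand). Mmp2 encodes gelatinase A, which degrades type IV collagen and gelatin (ENSMUSG00000031740, chr8:92827291-92853420, plus strand). Both carry the catalytic zinc site of the family, the protein motif HExxHxxGxxH, which was found once in each coding sequence. The coding bases of that site are shown because they are the part of the pair that does the same chemistry, with the 3 histidine codons that hold the zinc in capitals. They were read from GENCODE M21 transcripts of GRCm38, plus strand, from chr8:92839279-92839311 (exon 8 of 13 of Mmp2-201) and chr10:128795673-128795705 (exon 5 of 9 of Mmp19-201).
Mmp2: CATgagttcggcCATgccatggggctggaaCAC
Mmp19: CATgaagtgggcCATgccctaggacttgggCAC
Of the 33 bases, 24 were identical, including all 3 histidine codons. The coding sequences hold 662 codons for Mmp2 and 527 for Mmp19.

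Mmp19 was read at 11.2, 12.6 and 10.5 CPM in untreated wild type, while untreated Trim47-/- gave 3.92, 5.10 and 2.98 CPM. After 5-FU the wild-type libraries gave 6.12, 5.56 and 3.54 CPM and the Trim47-/- ones 23.3, 25.1 and 23.7 CPM. All libraries of Trim47-/- after 5-FU were above every other library, the untreated wild-type libraries came next, and the remaining groups overlapped each other at the bottom. The Trim47-/- level was lower by a log2 difference of -1.51 (SE 0.198) without drug, which is 2.85-fold, and higher by 2.24 (SE 0.194), which is 4.73-fold, after 5-FU. Set against its own untreated group, wild type after 5-FU was at -1.17 (SE 0.199) and Trim47-/- after 5-FU at 2.59 (SE 0.194), a 6.0-fold higher level. Of the 11479 genes that averaged 5 CPM or more over all libraries, 0.148% had a larger genotype difference after 5-FU, as a description of where the gene was chosen from. Mmp19 was a low-count gene, with 56 to 347 reads per library, and the widest spread was in wild type after 5-FU (coefficient of variation 26.8%, where counting alone gives 11.2%).

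Reads of Mmp19 may include those of a neighbour, since its 3′ end shares 789 exon bases with Tmem198b on the opposite strand and the strand setting of the counting was not stated. Tmem198b stood at 50.1, 25.7, 23.4 and 30.3 CPM (means, in the order untreated wild type, untreated Trim47-/-, wild type after 5-FU, Trim47-/- after 5-FU, used for every such series below). It was lower in untreated Trim47-/- and in wild type after 5-FU than in untreated wild type, as Mmp19 was. In Trim47-/- after 5-FU it was higher than in wild type after 5-FU and than in untreated Trim47-/-, again as Mmp19 was. That level was below untreated wild type for Tmem198b and above it for Mmp19. The part of shared reads in the Mmp19 counts was not tested. The antisense gene model Gm47093, which spans Mmp19, was near 0 (at most 0.0240 CPM).

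The Mmp2 libraries were at 17.1, 14.5 and 16.6 CPM in untreated wild type, and those of untreated Trim47-/- at 29.8, 31 and 30.5 CPM. With the drug the wild-type libraries gave 8.52, 7.33 and 9.60 CPM and the Trim47-/- ones 4.04, 4.20 and 3.69 CPM. No groups overlapped, with untreated Trim47-/- the highest and Trim47-/- after 5-FU the lowest. In untreated libraries Trim47-/- was above wild type by a log2 difference of 0.92 (SE 0.0907), which is 1.89-fold, and after 5-FU below it by -1.09 (SE 0.112), which is 2.13-fold. Across the drug, the level was lower in both genotypes, by -0.92 (SE 0.0978) in wild type and by -2.93 (SE 0.106), or 7.64-fold, in Trim47-/-.

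Per length, the balance between this pair of proteases turned over in Trim47-/-. The FPKM values deposited by the authors, which divide by gene length and so allow genes to be compared, gave a ratio of Mmp2 to Mmp19 of 1.48 ± 0.249 in untreated wild type and 8.33 ± 2.20 in untreated Trim47-/-. After 5-FU the ratio was 1.89 ± 0.821 in wild type and 0.173 ± 0.00921 in Trim47-/-. Mmp2 was thus the more abundant of the pair in all 9 libraries of the first 3 groups and the less abundant in the 3 libraries of Trim47-/- after 5-FU.

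**Figure D1:**
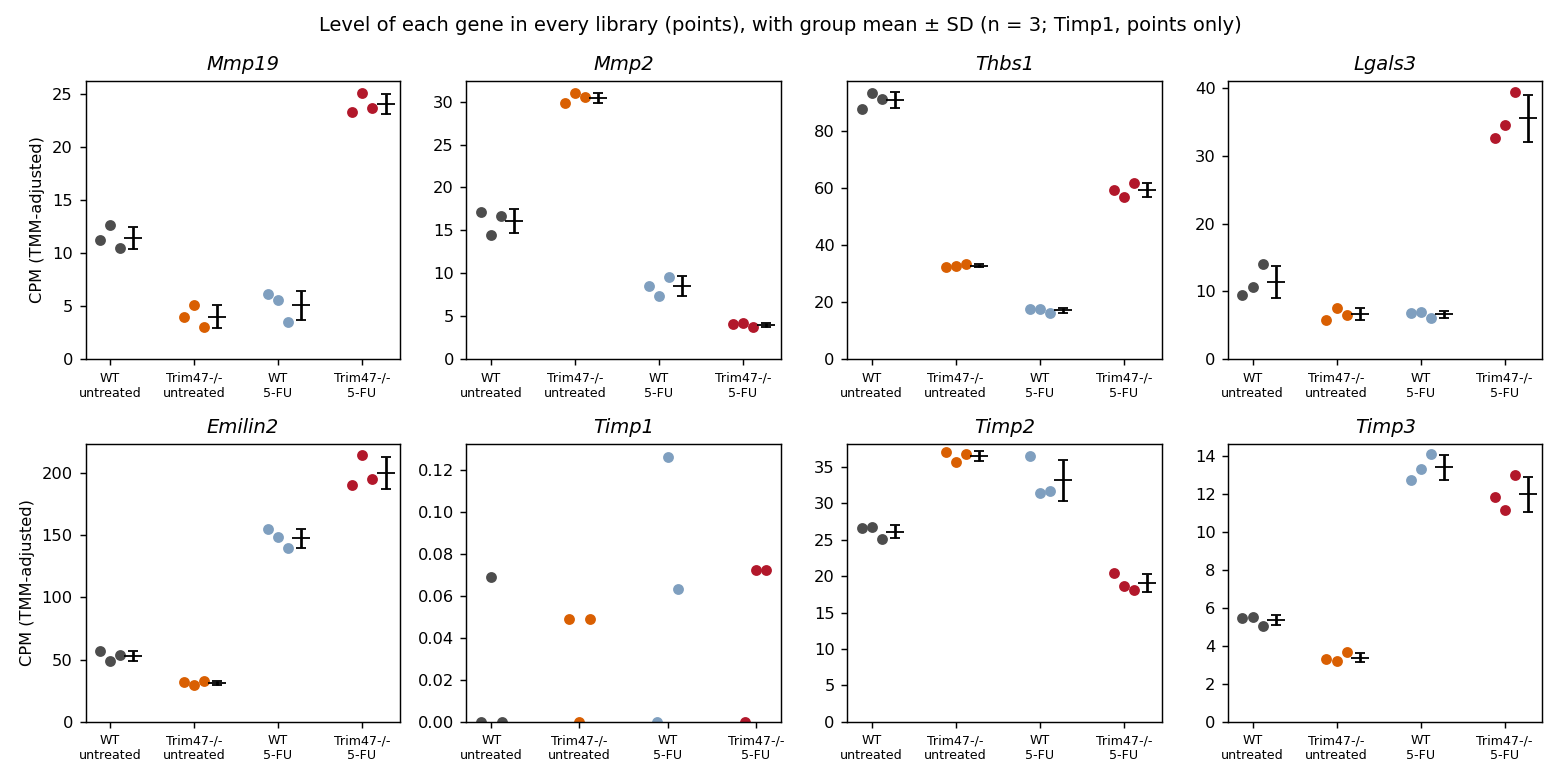
Level of each of the 8 genes in every library, in CPM on TMM-adjusted totals (vertical axes start at 0), by group. Points are single libraries and bars are the group mean ± SD (n = 3), drawn for all genes but Timp1, whose points stand for 0 to 2 reads. Mmp19 and Lgals3 stand highest in Trim47-/- after 5-FU (means of 24.0 and 35.6 CPM), Mmp2 in untreated Trim47-/- (30.4 CPM), and Thbs1 in untreated wild type (90.8 CPM).

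The 3 inhibitors stood at very different levels. Timp1, which encodes a secreted inhibitor often induced by inflammation (ENSMUSG00000001131, chrX:20870166-20874735, plus strand), had 0, 1 and 0 reads in untreated wild type, 1, 0 and 1 in untreated Trim47-/-, 0, 2 and 1 in wild type after 5-FU and 0, 1 and 1 in Trim47-/- after 5-FU. Every library was below 3 reads, the level that a count of 0 allows (0.146 to 0.217 CPM across libraries, for counting error only), so Timp1 was not detectable as different between groups at this depth and no fold is given. It lies within Syn1 on the opposite strand without sharing exon bases, and Syn1 stood at 0.0920 CPM or less.

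Timp2, the inhibitor that also takes part in activating the Mmp2 precursor at the cell surface (ENSMUSG00000017466, chr11:118301069-118355740, minus strand), was the main TIMP in every library. It was read at 26.7, 26.7 and 25.1 CPM in untreated wild type, while untreated Trim47-/- gave 37.1, 35.8 and 36.8 CPM. After 5-FU the wild-type libraries gave 36.5, 31.5 and 31.7 CPM and the Trim47-/- ones 20.5, 18.7 and 18.1 CPM. Untreated Trim47-/- and wild type after 5-FU overlapped at the top, untreated wild type lay between, and Trim47-/- after 5-FU was lowest. The genotype difference was 0.48 (SE 0.0665) on the log2 scale without drug and -0.80 (SE 0.0686) after it, and the difference with 5-FU was 0.34 (SE 0.0671) in wild type and -0.94 (SE 0.0680) in Trim47-/-. Mmp14, the membrane protease that activates the Mmp2 precursor together with Timp2, stood at 8.41, 9.51, 14.2 and 11.6 CPM. It is named for that role after its values were seen, and by edgeR's quasi-likelihood test it did not pass between genotypes in untreated libraries (log2 0.18, adjusted p = 0.141) and fell in Trim47-/- against wild type after 5-FU (log2 -0.29, SE 0.0783, adjusted p = 0.00876).

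Timp3, which binds to the matrix and also inhibits ADAM proteases (ENSMUSG00000020044, chr10:86300372-86349506, plus strand), was a low-count gene that separated the libraries by drug. It was read at 5.46, 5.54 and 5.04 CPM in untreated wild type, against 3.28, 3.19 and 3.66 CPM in untreated Trim47-/-, 12.7, 13.3 and 14.1 CPM in wild type after 5-FU and 11.8, 11.1 and 13 CPM in Trim47-/- after 5-FU. All 6 libraries with 5-FU were above all 6 without it, and the genotypes overlapped after 5-FU, where the log2 difference was -0.16 (SE 0.0814). Without drug Trim47-/- was lower by -0.66 (SE 0.0954), or 1.58-fold. With 5-FU the level was 2.50-fold higher in wild type and 3.54-fold higher in Trim47-/-. Timp3 lies within Syn3 on the opposite strand, with 1733 shared exon bases, and Syn3 stood at 2.72, 2.51, 1.96 and 1.04 CPM, lower with 5-FU where Timp3 was higher.

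Timp2 exceeded Timp3 per length in every library, but by different margins. The ratio of their FPKM was 10.8 ± 0.164 in untreated wild type, 24.0 ± 1.54 in untreated Trim47-/-, 5.50 ± 0.722 in wild type after 5-FU and 3.53 ± 0.396 in Trim47-/- after 5-FU. No groups overlapped in this ratio.

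Summed per length, the detected inhibitors outweighed the 2 proteases most in wild type after 5-FU. Mmp2 plus Mmp19 came to 5.63 ± 0.141, 7.23 ± 0.281, 2.98 ± 0.203 and 5.72 ± 0.221 FPKM, and Timp2 plus Timp3 to 6.80 ± 0.240, 9.19 ± 0.200, 10.04 ± 0.660 and 5.94 ± 0.292 FPKM. The ratio of inhibitors to proteases was 1.21 ± 0.0455 in untreated wild type, 1.27 ± 0.0753 in untreated Trim47-/-, 3.37 ± 0.0214 in wild type after 5-FU and 1.04 ± 0.0807 in Trim47-/- after 5-FU. All 3 wild-type libraries after 5-FU, at 3.36, 3.39 and 3.35, stood above the other 9, whose highest was 1.32. This ratio covers only the 2 proteases chosen. All 18 metalloproteinases in the table summed to 11.9, 14.5, 10.6 and 16.7 FPKM (means), above Timp2 plus Timp3 in every group. RNA levels do not give the amounts of active enzyme or of inhibitor protein.

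**Figure D2:**
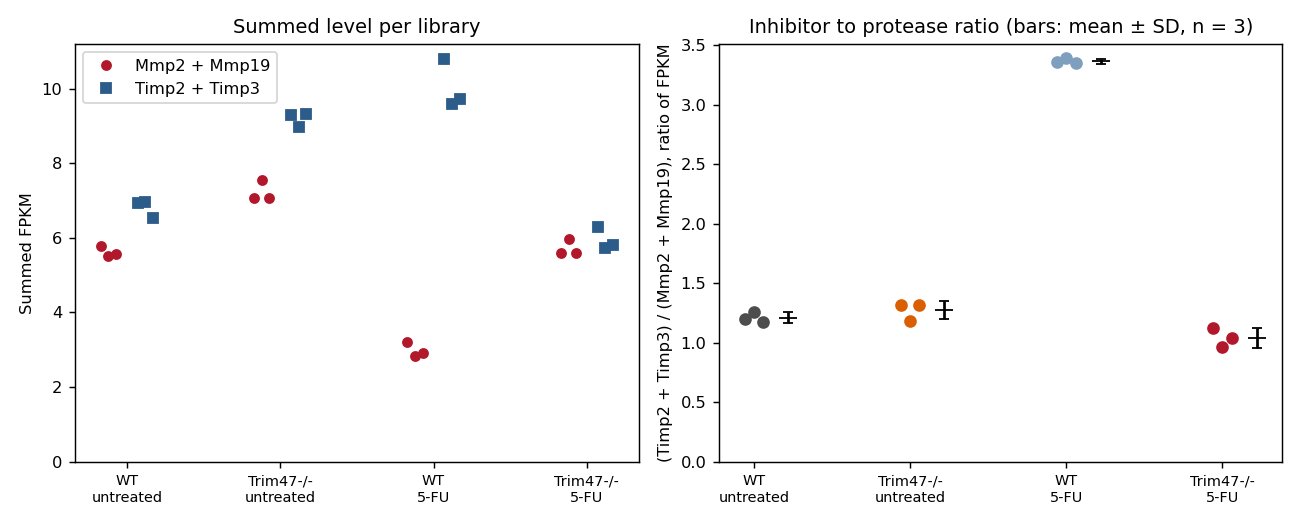
Left, FPKM summed over Mmp2 and Mmp19 (circles) and over Timp2 and Timp3 (squares) in each library, by group. Right, the ratio of the sums in each library, with the group mean ± SD (n = 3) beside the points; the wild-type libraries after 5-FU lie at 3.35 to 3.39 and the other groups at 0.961 to 1.32.

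Thbs1 encodes thrombospondin 1, a matricellular protein that binds CD47, CD36 and integrins, activates latent TGF-beta and restrains vessel growth (ENSMUSG00000040152, chr2:118111876-118127133, plus strand). Its libraries were at 87.7, 93.3 and 91.4 CPM in untreated wild type, against 32.3, 32.8 and 33.2 CPM in untreated Trim47-/-, 17.7, 17.4 and 16.0 CPM in wild type after 5-FU and 59.4, 57.0 and 61.8 CPM in Trim47-/- after 5-FU. No groups overlapped, and untreated wild type was highest and wild type after 5-FU lowest. The Trim47-/- level was 2.77-fold lower in untreated libraries (log2 -1.47, SE 0.0464) and 3.48-fold higher after 5-FU (log2 1.80, SE 0.0493). In wild type the drug group stood 5.33-fold below the untreated group (log2 -2.41, SE 0.0494), and in Trim47-/- it stood 1.81-fold above (log2 0.86, SE 0.0465). The other thrombospondins stood far lower in CPM, with Thbs2 at 0.358 to 1.29 CPM, Thbs3 at 2.40 to 2.89 CPM and Thbs4 at 0.163 CPM or less (group means).

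Receptors of thrombospondin 1 were measured in the same libraries, and 3 are named here for that role after their values were seen. Lrp1, a scavenger receptor that takes up thrombospondin 1 and protease complexes, had group means of 165, 91.3, 77.4 and 139 CPM. By edgeR's quasi-likelihood test it fell in Trim47-/- against wild type in untreated libraries (log2 -0.86, SE 0.0341, adjusted p = 1.581e-08). After 5-FU it rose in Trim47-/- against wild type (0.85, SE 0.0346, adjusted p = 4.682e-09). Cd47 stood at 449, 492, 588 and 564 CPM. Cd36 was at or below 1.24 CPM in every group.

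Lgals3 encodes galectin-3, a lectin that is secreted without a signal peptide, binds glycans on matrix and surface proteins and is abundant in macrophages (ENSMUSG00000050335, chr14:47367751-47386160, plus strand). It was read at 9.53, 10.7 and 14.1 CPM in untreated wild type, against 5.78, 7.60 and 6.54 CPM in untreated Trim47-/-, 6.81, 7.01 and 6.0 CPM in wild type after 5-FU and 32.6, 34.7 and 39.4 CPM in Trim47-/- after 5-FU. Trim47-/- after 5-FU was far above all other libraries, untreated wild type came next, and the remaining groups overlapped. The genotype difference was -0.78 (SE 0.150) on the log2 scale without drug and 2.43 (SE 0.148) after 5-FU, a 5.37-fold higher level. Of the same 11479 genes, 0.122% differed more between the genotypes after 5-FU. The more abundant galectin Lgals1 stood at 106, 57.9, 164 and 233 CPM. By edgeR's quasi-likelihood test it fell in Trim47-/- against wild type in untreated libraries (log2 -0.87, SE 0.0424, adjusted p = 6.049e-08). After 5-FU it rose in Trim47-/- against wild type (0.50, SE 0.0410, adjusted p = 1.224e-06). Lgals9 stood at 177, 179, 283 and 257 CPM, Lgals8 at 55.0, 66.5, 74.5 and 53.8 CPM and Lgals4 at 9.35, 10.8, 13.4 and 7.79 CPM, and none of these was highest in Trim47-/- after 5-FU.

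Emilin2 encodes an elastin-microfibril interface protein that is deposited in the matrix (ENSMUSG00000024053, chr17:71252172-71311978, minus strand), and after 5-FU it was the most abundant of the 8 genes. Single libraries stood at 57.0, 48.9 and 53.4 CPM in untreated wild type, against 31.6, 29.3 and 32.7 CPM in untreated Trim47-/-, 154.7, 148.8 and 139.6 CPM in wild type after 5-FU and 190.7, 214.5 and 195.5 CPM in Trim47-/- after 5-FU. No groups overlapped, and all 6 libraries with 5-FU were above all 6 without. The level with the drug was 2.78-fold higher in wild type (log2 1.48, SE 0.0663) and 6.41-fold higher in Trim47-/- (log2 2.68, SE 0.0687). Between genotypes Trim47-/- stood at -0.77 (SE 0.0681) without drug and at 0.44 (SE 0.0634), or 1.36-fold, after it, and 26.8% of the 11479 genes differed more after 5-FU. Of its relatives, Emilin1 stood at 126, 133, 171 and 142 CPM, and the multimerin gene Mmrn1 at 46.0, 62.1, 22.7 and 11.5 CPM. By edgeR's quasi-likelihood test Mmrn1 rose in Trim47-/- against wild type in untreated libraries (log2 0.43, SE 0.0577, adjusted p = 0.000181). After 5-FU it fell in Trim47-/- against wild type (-0.98, SE 0.0654, adjusted p = 2.457e-07).

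Emilin2 and Timp3 had the most similar course of any pair among the 7 genes above the filter. Lgals3 was the gene with the largest genotype difference after 5-FU. The sequence before a RefSeq start of each is therefore shown. RefSeq promoter windows of build GRCm38.p6, with 250 bases before each start, were matched for 5 of the 8 genes, and the bases that lie in GENCODE exons were left out. The printed parts are chr17:71311012-71311261 on the minus strand for Emilin2, chr10:86300162-86300371 on the plus strand for Timp3, and chr14:47373610-47373812 on the plus strand for Lgals3. For Emilin2 and Lgals3 the RefSeq start used and the printed part lie inside the GENCODE locus of the gene, not before it. Capitals mark matches to the GC box GGGCGG (here as CCGCCC) or to the ETS core CCGGAAGT (here as ACTTCCGG) within the printed parts.
Emilin2: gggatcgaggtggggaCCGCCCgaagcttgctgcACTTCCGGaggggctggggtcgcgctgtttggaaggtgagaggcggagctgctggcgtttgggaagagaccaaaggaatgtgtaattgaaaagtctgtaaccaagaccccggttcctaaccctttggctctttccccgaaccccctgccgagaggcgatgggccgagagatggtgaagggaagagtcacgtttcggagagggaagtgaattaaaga
Timp3: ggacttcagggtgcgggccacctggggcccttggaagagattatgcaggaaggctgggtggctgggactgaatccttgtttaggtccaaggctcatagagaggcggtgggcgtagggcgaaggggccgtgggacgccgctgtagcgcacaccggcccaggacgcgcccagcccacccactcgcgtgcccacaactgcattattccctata
Lgals3: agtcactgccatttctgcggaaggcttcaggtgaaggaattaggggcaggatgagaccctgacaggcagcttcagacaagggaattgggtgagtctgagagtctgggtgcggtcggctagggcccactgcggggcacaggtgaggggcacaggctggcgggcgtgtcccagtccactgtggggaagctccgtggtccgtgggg
A window at another RefSeq start of Emilin2, chr17:71311557-71311806, was also matched. It held none of the motifs searched and is not printed, since 178 of its 250 bases lie in exons. Over whole windows on both strands, the GC box was found for all 5 matched genes, including Timp1 and Timp2. In Timp3 (-15 to -10 from the start) and Lgals3 (-7 to -2) it lies in the exon bases left out above. The ETS core was found for Emilin2 alone of the 5. Of 32851 such windows, 32.7% held the GC box and 2.88% the ETS core. The letters of AP-1 (TGANTCA, in 6.75% of windows), a cAMP response element (TGACGTCA, 1.55%), an E-box (CACGTG, 6.02%), a TATA box (TATAAA, 12.4%) and the NF-kB consensus (3.90%) were not found in the windows of the 5 matched genes. A match is a description of letters and not a site of binding.

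The 3′ untranslated regions differed in a sequence feature that the choice of genes did not use. The pentamer ATTTA, the core of AU-rich elements, occurred 6 times in the 2104 bases of Thbs1 and 8 times in the 3604 bases of Timp3, against once each in Mmp19 (1724 bases), Mmp2 (755 bases) and Lgals3 (480 bases), 2 times in Emilin2 (584 bases) and 0 times in Timp1 (101 bases) and Timp2 (2630 bases). Of 12238 genes, 15.2% had at least 6 and 9.02% at least 8. Among genes of like 3′ length those shares were 24.2% for Thbs1 and 34.8% for Timp3, and 5.25% had none where Timp2 had none.

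**Figure D3:**
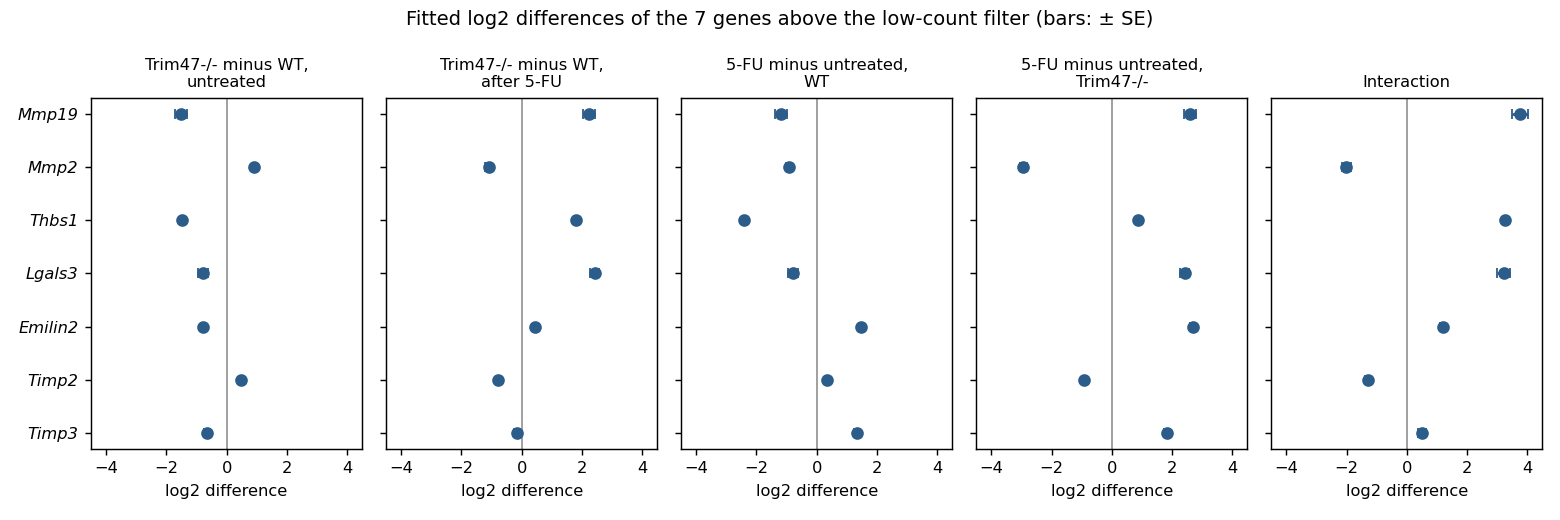
Fitted log2 differences (points) with their standard errors (bars) for the 7 genes above the low-count filter, one panel per comparison and a common horizontal axis. The interaction is the 5-FU difference in Trim47-/- minus that in wild type; Mmp19, Thbs1, Lgals3 and Emilin2 lie left of 0 for genotype without drug and right of 0 after 5-FU, and Mmp2 and Timp2 the reverse.

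Read over the 7 genes, the genotype difference changed sign with the drug in 6. Mmp19, Thbs1, Lgals3 and Emilin2 were lower in untreated Trim47-/- and higher in Trim47-/- after 5-FU, Mmp2 and Timp2 were higher and then lower, and Timp3 was lower without drug and overlapped after it. The genes were picked for such differences, so nothing is read from these counts. The sign change was common in these libraries: of 16319 genes, 3388 (20.8%) passed, at an adjusted p under 0.05, in both genotype comparisons in opposite directions and 583 in the same direction. The comparisons that share a group are given side by side without an overlap.

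The interaction, in log2 units, was 3.76 (SE 0.277) for Mmp19, 3.27 (SE 0.0677) for Thbs1, 3.21 (SE 0.210) for Lgals3, 1.20 (SE 0.0930) for Emilin2, 0.50 (SE 0.125) for Timp3, -1.28 (SE 0.0955) for Timp2 and -2.01 (SE 0.144) for Mmp2. Positive values mean that the level with 5-FU relative to untreated was higher in Trim47-/- than in wild type. Of the 11479 genes, 0.105% had a larger interaction than Mmp19 and 35.6% a larger one than Timp3.

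The order of the 8 genes by FPKM differed from group to group. In untreated wild type Thbs1 led at 13.6 ± 0.448 FPKM, followed by Timp2 (6.23 ± 0.212) and Emilin2 (5.60 ± 0.421), whose libraries overlapped. In untreated Trim47-/- Timp2 (8.82 ± 0.181) and Mmp2 (6.42 ± 0.126) led, with Thbs1 at 4.98 ± 0.0838. In wild type after 5-FU Emilin2 (16.7 ± 0.866) and Timp2 (8.49 ± 0.722) led, and Thbs1 followed at 2.74 ± 0.151. In Trim47-/- after 5-FU Emilin2 (21.5 ± 1.32), Lgals3 (10.8 ± 1.05) and Thbs1 (9.06 ± 0.370) led, Mmp19 (4.88 ± 0.185) and Timp2 (4.63 ± 0.309) overlapped, and Mmp2 was next to last at 0.843 ± 0.0542. Timp1 was last in every group, at 0.0478 FPKM or less.

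The 12 libraries also gave the likeness of the genes to one another, as Pearson's r of log2 CPM; libraries of a group share genotype, treatment and depth, so these values describe 4 groups more than 12 points. Emilin2 and Timp3 were most alike (r = 0.97), then Mmp19 and Lgals3 (0.94). Mmp2 ran against Emilin2 (-0.97) and Timp3 (-0.90), and Timp2 against Lgals3 (-0.96) and Mmp19 (-0.94). Thbs1 had no close partner, with Mmp19 nearest (0.69).

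Among 9263 genes averaging 10 CPM or more, the highest correlations over the 12 libraries were with Pfdn4 (0.989), Mfsd14a (0.985) and Mapkapk2 (0.981) for Mmp19, and Carmil2, Rcsd1 (both 0.994) and the cytokine receptor gene Flt3 (0.992) for Mmp2. Thbs1 was nearest to Mef2d (0.996), Usp36 and Elk4 (both 0.994), and Lgals3 to Hdlbp, Rest (both 0.986) and Ddx28 (0.985). For Emilin2 they were Fdps, Aopep (both 0.992) and Tpm4 (0.991), for Timp2 Pacs1 (0.993), St3gal1 (0.990) and Frmd8 (0.986), and for Timp3 Mfsd2b (0.990), Plscr1 and Lgmn (both 0.988). Flt3 stood at 710.5, 914, 546 and 445 CPM, the same order of groups as Mmp2, and Mapkapk2, a kinase gene, at 494, 344, 377 and 721 CPM. Usp36, second nearest to Thbs1, is the gene next to Timp2 on chromosome 11, 10825 bases away, and stood at 191, 123, 90.7 and 165 CPM. Lgals3bp, which encodes a secreted ligand of galectin-3 and lies 37011 bases from Timp2 on its other side, stood at 198, 185, 197 and 270.0 CPM.

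Levels of cell type markers moved with several of these genes. In bulk libraries fewer cells of a type and less RNA per cell cannot be told apart. The summed level of 16 monocyte and macrophage markers was 675 to 688 CPM in untreated wild type, 491 to 517 in untreated Trim47-/-, 623 to 636 in wild type after 5-FU and 1084 to 1116 in Trim47-/- after 5-FU, highest and second highest in the same groups as Lgals3 and Mmp19. Of 14 tested, 6 fell in untreated Trim47-/- (42.9%) and 11 rose after 5-FU (78.6%). Of all 16319 genes, 33% passed between genotypes without drug and 54.7% after 5-FU. The marker counts here and below are to be read against those shares. Csf1r stood at 89.3, 56.2, 57.5 and 135 CPM, while the macrophage complement gene C1qa was near 0 (1.01, 0.538, 0.295 and 0.120 CPM). The part of these cells in the levels of Lgals3 and Mmp19 was not tested.

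Of 14 neutrophil markers the summed level was 3321 to 3458, 3251 to 3306, 4077 to 4149 and 6515 to 6899 CPM, the same order of groups as Emilin2. Of 13 tested, 6 rose and 3 fell in untreated Trim47-/- (median log2 difference 0.24), although the sum was lower there. The order is thus that of the sum and not of the median marker. After 5-FU 12 rose. Megakaryocyte and platelet markers (14 genes) summed to 273 to 278, 262 to 269, 396 to 407 and 288 to 292 CPM, which was the order of Timp3 but not of Thbs1, a protein stored in platelets. Of 13 of these markers tested, 1 rose and 8 fell in untreated Trim47-/- (median log2 difference -0.59), where Thbs1 was lower too, and 11 fell and 0 rose there after 5-FU (median -0.51), where Thbs1 was higher. Stromal and osteolineage markers (14 genes) summed to 74.7 to 80.0, 96.5 to 103, 67.6 to 73.1 and 52.2 to 56.2 CPM, the order of Mmp2, a gene of stromal cells. Most of that sum was Pdgfrb (72.2, 89.0, 63.3 and 48.7 CPM), and the defining stromal genes Dcn, Lum and Prrx1 had 0 reads in untreated wild type and at most 0.555 CPM elsewhere. Of the 4 stromal markers tested, 3 rose and 0 fell, then 0 rose and 2 fell. Dendritic cell markers (12 genes; 1126 to 1149, 1250 to 1365, 666 to 683 and 580 to 584 CPM) and B and T cell markers (12 genes; 65.4 to 69.0, 76.8 to 81.3, 45.4 to 49.7 and 36.7 to 38.6 CPM) had the order of Mmp2 as well. Most of the dendritic cell sum was Flt3 (710.5, 914, 546 and 445 CPM), a cytokine receptor gene named above for its likeness to Mmp2. The order of that sum was thus mainly the order of Flt3. Of 9 dendritic cell markers tested 1 rose and 2 fell (33.3%), then 0 rose and 1 fell (11.1%). Of 7 B and T cell markers 1 rose and 1 fell (28.6%), then 0 rose and 5 fell (71.4%). Without drug both shares were near or below the 33% of all genes. After 5-FU the dendritic cell share was below the 54.7% of all genes and the B and T cell share above it. The 14 genes of the LT-HSC list given above, Cd34 and Cd48 included, had the order of Timp2 in their sums. Of the 14, 7 rose and 0 fell in untreated Trim47-/- (median log2 difference 0.11), and 0 rose and 12 fell after 5-FU (median -0.77), 6 of them by over 2-fold. Endothelial markers (12 genes) summed to 145 to 152, 141 to 148, 194 to 198 and 148 to 154 CPM, with 4 of 9 tested rising and 1 falling in untreated Trim47-/- and 0 rising and 6 falling after 5-FU (median -1.11). Erythroid markers (10 genes) summed to 113 to 121, 188 to 193, 529 to 531 and 451 to 465 CPM, with 8 rising and 0 falling, then 0 rising and 6 falling. After 5-FU the share passing was 60% for erythroid and 50% for stromal markers, both near that of all genes. The part of these cells in the levels of the matrix genes was not tested.

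Of 208 other genes on 9 lists of matrix proteases, inhibitors, matrix proteins and their receptors, 193 were in the table and 127 were tested. Between genotypes 30 rose and 33 fell in untreated Trim47-/- (49.6% of the 127, against 33% of all genes; median log2 difference 0.04 against 0.03), and 44 rose and 40 fell after 5-FU (66.1% against 54.7%; median -0.01 against -0.000372). With 5-FU, 51 rose and 42 fell in wild type (73.2% against 50.6%) and 54 rose and 43 fell in Trim47-/- (76.4% against 60.5%), and the interaction was positive for 43 and negative for 44 that passed (68.5% against 54.9%). In opposite directions in both genotype comparisons were 47 of the 127 (37.0%, against 20.8% of all genes), of which 28 were lower and then higher in Trim47-/-. The lists were chosen with earlier results of these data known, so these shares are a description and no test of matrix genes as a class.

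Of 16 matrix-degrading enzymes other than metalloproteinases, 2 rose and 10 fell in untreated Trim47-/- (75%), and 11 rose and 1 fell after 5-FU (75%). Percentages here and for the lists below are the shares that passed, against 33% of all genes without drug and 54.7% after 5-FU. Plau, the urokinase that activates plasminogen, fell and then rose (log2 -0.95, SE 0.102, adjusted p = 3.589e-05, and 1.27, SE 0.102, adjusted p = 1.162e-06, edgeR's quasi-likelihood test here and below), from 15.3, 7.96, 8.42 and 20.3 CPM, the order of groups of Mmp19. Several of these enzymes (Elane, Prtn3 and Ctsg) are also on the neutrophil list. Among 9 other metalloproteinases, 1 rose and 1 fell without drug (22.2%, below all genes) and 3 rose and 4 fell after it (77.8%). The neutrophil collagenase Mmp8, at 3.34, 3.07, 4.23 and 11.6 CPM, rose in Trim47-/- after 5-FU (log2 1.45, SE 0.0935, adjusted p = 1.848e-07). Of 14 ADAM and ADAMTS proteases, 2 rose and 1 fell (21.4%) and then 4 rose and 3 fell (50%), both shares below those of all genes. The myeloid protease Adam8 rose (1.62, SE 0.112, adjusted p = 3.311e-07) and Adam22 fell (-1.22, SE 0.118, adjusted p = 5.188e-06) after 5-FU. With Mmp2 and Mmp19 included, the 18 metalloproteinases in the table summed to 11.9 ± 0.410, 14.5 ± 0.268, 10.6 ± 0.471 and 16.7 ± 0.446 FPKM.

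Of 18 other protease inhibitors, 5 rose and 4 fell in untreated Trim47-/- (50%) and 8 rose and 5 fell after 5-FU (72.2%). Spint1, an inhibitor of serine proteases at the cell surface, rose in untreated Trim47-/- (log2 0.53, SE 0.154, adjusted p = 0.0201), a call that was lost without untreated wild-type replicate 3 or without untreated Trim47-/- replicate 2 (adjusted p from 0.00367 to 0.0807 over its alternatives).

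Of 33 structural matrix proteins and cross-linkers, 10 rose and 5 fell in untreated Trim47-/- (45.5%, against 33% of all genes). After 5-FU 5 rose and 15 fell (60.6%, near the 54.7% of all genes). The latent TGF-beta binding protein gene Ltbp4 (1.05, SE 0.135, adjusted p = 0.000145) and the laminin gene Lamb2 (0.55, SE 0.102, adjusted p = 0.00161) rose without drug, and the proteoglycan gene Bgn (-1.30, SE 0.160, adjusted p = 3.538e-05) and the collagen lysyl hydroxylase gene Plod2 (-1.02, SE 0.0855, adjusted p = 1.598e-06) fell after it. Of 12 other thrombospondins and matricellular genes, 3 rose and 3 fell (50%), then 4 rose and 2 fell (50%, below all genes). Of 6 other galectin genes, 2 rose and 1 fell (50%), then 2 rose and 3 fell (83.3%). Of 3 other EMILIN and multimerin genes 2 rose without drug and 3 fell after it, too few genes for a share. Receptors and ligands of the 8 genes (16) gave 3 rising and 8 falling (68.75%) and then 7 rising and 4 falling (68.75%). They include Itga3, an integrin subunit that pairs in a thrombospondin and laminin receptor, which fell without drug (-1.30, SE 0.0572, adjusted p = 3.158e-08).

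**Figure D4:**
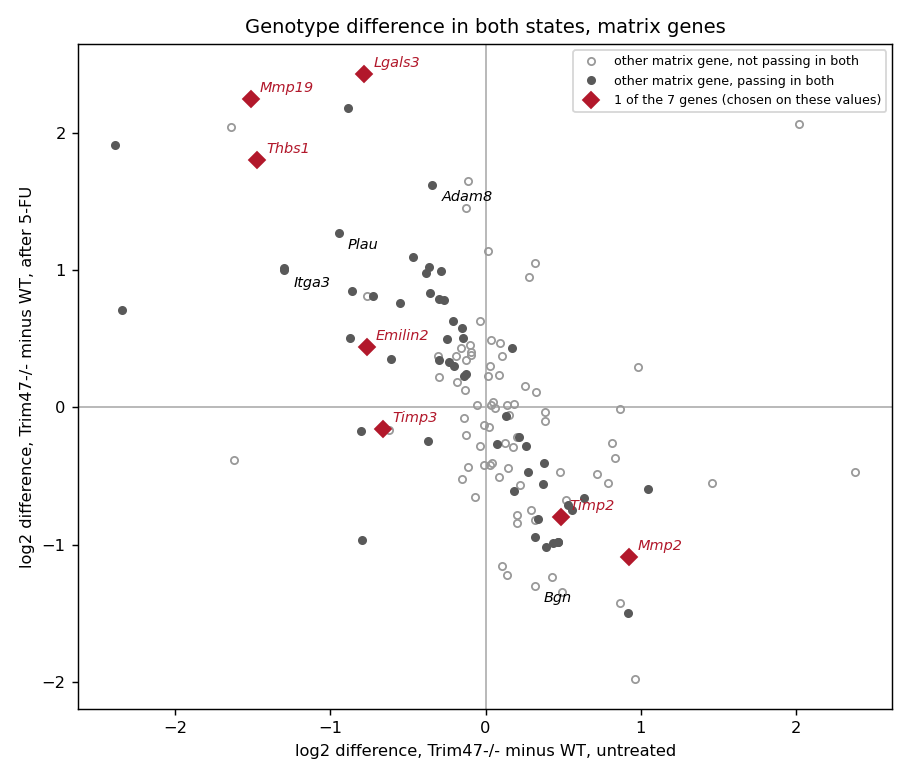
Each point is a matrix gene, with its log2 difference between Trim47-/- and wild type in untreated libraries (horizontal) and after 5-FU (vertical). Diamonds are the 7 genes chosen on these values, filled circles the 51 other matrix genes that passed in both comparisons and open circles the rest of the 127; 47 of the 51 lie in the upper left or lower right, where the signs differ.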

How the data were processed

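RNA-seq of 12 libraries was analysed, 3 in each of 4 groups taken from the sample titles and labels. Libraries were paired-end and stranded, from poly-A RNA, per the labels' protocols. The deposited table holds raw counts per gene and FPKM values calculated by the authors, per the file headers. CASAVA 1.8, HISAT2, StringTie and edgeR are listed, with the build GRCm38 and no roles, in the submitters' processing notes. Which tool counted the reads, with which strand setting and annotation, was not given in the sources used here.

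The tests used edgeR 4.0.16 under R 4.3.3, with TMM scaling, its default filter on low counts and the quasi-likelihood test. The fit held all 12 libraries and a mean for each group, and the spread was estimated over the 4 groups together. A gene passed, and is said to have risen or fallen, at a Benjamini-Hochberg adjusted p under 0.05 over 16319 genes. CPM were taken on TMM-adjusted totals. FPKM served only to compare genes. The 8 genes, the 9 matrix lists and the 9 marker lists were chosen with earlier results of these data known. Other matrix genes were named by a rule of up to 3 rising and 3 falling per comparison with the largest change and a mean of at least 5 CPM, with relatives and neighbours of the 8 genes; 1 gene named by that rule is not reported here. The nearest genes were the 3 with the highest Pearson's r of log2 CPM (prior count 1) at a mean of at least 10 CPM, leaving out Gm, Rik, immunoglobulin and T-cell receptor names. Loci were the same in the table and in GENCODE M21. Alternatives were DESeq2 1.42.0 size factors and test, no filter, the replicate number as a block, only the 6 libraries compared, and each library left out in turn. The procedure was also run on simulated data in which few genes changed, and only in Trim47-/- after 5-FU. That run did not test it under changes as widespread as those seen here. Python 3.11.15, numpy 2.4.6, pandas 2.3.3 and matplotlib 3.10.9 were used for tables and plots.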

Additional observations from a re-analysis of the deposited data

Results flagged for a closer look

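Some effects went in opposite directions in the groups compared. For the 7 fitted genes of the 8 that difference was not tested on values other than those that chose them, so the interaction is given as a fitted log2 value with no p. In Mmp19 (3.76), Thbs1 (3.27), Lgals3 (3.21) and Timp2 (-1.28), the libraries with 5-FU lay on opposite sides of the untreated ones in the 2 genotypes, and the genotype difference also had opposite signs without and with 5-FU. In Mmp2 (-2.01) and Emilin2 (1.20) the genotype difference alone had opposite signs. Among the other matrix genes, edgeR's quasi-likelihood test of the interaction passed for Itga3 (log2 2.29, SE 0.0831, adjusted p = 1.748e-09) and for Plau (2.21, SE 0.145, adjusted p = 2.027e-07). It also passed for Bgn (-1.61, SE 0.214, adjusted p = 6.395e-05), Col4a2 (-1.45, SE 0.0452, adjusted p = 5.161e-10) and Serpinb9 (-1.44, SE 0.108, adjusted p = 6.252e-07).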

How the results depend on the processing

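The 35 fitted differences of the 7 genes gave 588 values under the alternatives. Of these, 587 lay within 1 SD of the reported value and 1 moved further, the genotype difference of Thbs1 after 5-FU, which was 1.74 without wild-type 5-FU replicate 3 against 1.80. None had the opposite sign, and no difference spanned more than 0.41 on the log2 scale. The counts of other matrix genes and of all genes that passed stayed within 1.5 times of those reported under every alternative run. With each library left out in turn, other matrix genes passing numbered 55 to 67 (63 reported) between genotypes without drug and 76 to 87 (84) after 5-FU. A fit of only the 6 libraries compared was not run for the interaction, which needs all groups. With the replicate block, 62 and 82 other matrix genes passed between genotypes, and 87 passed the interaction. Deviations of libraries with the same replicate number correlated at -0.134 to 0.0858 (18 pairs) and those with different numbers at -0.105 to 0.101 (36 pairs), so the numbers were not taken as pairs. Depth limits Timp1, with at most 2 reads per library, and leaves Mmp19, Mmp2, Lgals3 and Timp3 with fewer than 100 reads in some libraries.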

Other observations

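Matrix genes outside the 8 responded to 5-FU in both genotypes. Col18a1, the collagen that yields endostatin, rose from 2.74 ± 0.560 to 40.9 ± 1.80 CPM in wild type (log2 3.90, SE 0.103, adjusted p = 8.785e-11 by edgeR's quasi-likelihood test) and from 2.82 ± 0.156 to 30.9 ± 0.497 CPM in Trim47-/- (3.45, SE 0.0985, adjusted p = 1.356e-10; SD, n = 3). Ecm1, a secreted matrix glycoprotein, rose in both as well (1.81, SE 0.0932, adjusted p = 2.608e-08, and 1.93, SE 0.0936, adjusted p = 1.117e-08). The syndecan gene Sdc4 fell in wild type from 89.1 ± 0.334 to 16.6 ± 0.633 CPM (-2.42, SE 0.0429, adjusted p = 2.987e-12). Its mean was lower with 5-FU in Trim47-/- as well (69.1 without drug and 33.9 CPM with it). In Trim47-/- the multimerin Mmrn1 (-2.43, SE 0.0642, adjusted p = 6.678e-11), Adam22 (-2.40, SE 0.113, adjusted p = 8.898e-09) and the procollagen protease Bmp1 (-1.76, SE 0.0861, adjusted p = 1.186e-08) fell. Their means were lower with 5-FU in wild type too. Without and with drug they were 46.0 and 22.7 CPM for Mmrn1, 21.3 and 10.3 CPM for Adam22, and 31.6 and 20.7 CPM for Bmp1.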
